A study of Mus musculus with 10 samples.

Results

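Transcript levels of 10 genes of ribosomal RNA gene transcription were examined in O9-1 cells, a line of mouse cranial neural crest cells. The genes were Polr1a, Polr1b, Polr1c, Polr1d, Polr1e, Tcof1, Ubtf, Rrn3, Taf1b and Taf1c, and they were taken by symbol from the 43346 genes of the raw count table, with 1 row for each gene. RNA sequencing covered 4 independent cultures of wildtype O9-1 cells (WT/1 to WT/4), 3 clones with a knockout of Kat5 (Kat5/1 to Kat5/3) and 3 clones with a knockout of Ep400 (Ep400/1 to Ep400/3). Kat5 is the histone acetyltransferase and Ep400 the ATP-dependent remodeler of the Tip60/Ep400 chromatin complex. Both genes had been inactivated by CRISPR/Cas9 editing, without a further treatment, in cells grown on Matrigel in preconditioned medium. O9-1 cells are tetraploid. Every allele carries a frameshift in all Kat5 ko clones and in the first Ep400 ko clone, whereas the other Ep400 ko clones keep alleles with short in-frame deletions at the ATP binding site. Each knockout library is 1 clone, so that differences between clones enter the comparisons only as the spread between clones. The knockout clones were transfected, sorted and grown from single cells, and no such step is described for the wildtype cultures. Against wildtype, effects of the knockout and of this handling cannot be told apart.

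RNA polymerase I (Pol I) transcribes the repeated genes for the large ribosomal RNA precursor in the nucleolus. The initiation factor Rrn3 makes the polymerase competent for initiation, the SL1 complex with its subunits Taf1b and Taf1c recruits it to the promoter, and Ubtf is the architectural protein of active ribosomal RNA genes. Tcof1 encodes treacle, a nucleolar protein that binds Pol I and Ubtf. Mutations of human TCOF1, POLR1B, POLR1C or POLR1D cause Treacher Collins syndrome, a craniofacial disorder in which too few cranial neural crest cells are formed, and mutations of POLR1A cause a related acrofacial dysostosis. In the mRNA libraries used here, the transcripts of these factors are measured and not ribosomal RNA itself.

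In the direct comparison of the knockouts, Polr1b and Rrn3 were lower in Ep400 ko than in Kat5 ko clones, and Polr1c was lower in Ep400 ko than in wildtype cells. The 250 bases before the transcription start of these 3 genes are shown, since they are the genes on which the tested differences rest. The sequences are those of RefSeq (GRCm38.p6) and read in the direction of the gene. Of the 10 genes, 9 were searched. Tcof1 was not included in the search, so that nothing is stated about its upstream bases. Capitals mark CACGTG, the core of the E-box bound by Myc and related factors, and CCGGAAG, a binding motif of Ets factors.

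Polr1b, chr2:129100746-129100995, plus strand: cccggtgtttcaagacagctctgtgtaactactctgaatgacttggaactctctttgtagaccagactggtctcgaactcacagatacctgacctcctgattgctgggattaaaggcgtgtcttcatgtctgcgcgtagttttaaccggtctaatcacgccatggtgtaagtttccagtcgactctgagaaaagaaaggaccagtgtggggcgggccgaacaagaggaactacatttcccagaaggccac

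Rrn3, chr16:13780449-13780698, plus strand: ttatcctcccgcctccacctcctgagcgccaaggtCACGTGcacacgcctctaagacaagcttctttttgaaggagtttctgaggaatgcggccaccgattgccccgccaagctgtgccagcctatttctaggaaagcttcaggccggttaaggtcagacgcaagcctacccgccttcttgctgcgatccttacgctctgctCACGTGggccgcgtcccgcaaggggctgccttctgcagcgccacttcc

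Polr1c, chr17:46248046-46248295, minus strand: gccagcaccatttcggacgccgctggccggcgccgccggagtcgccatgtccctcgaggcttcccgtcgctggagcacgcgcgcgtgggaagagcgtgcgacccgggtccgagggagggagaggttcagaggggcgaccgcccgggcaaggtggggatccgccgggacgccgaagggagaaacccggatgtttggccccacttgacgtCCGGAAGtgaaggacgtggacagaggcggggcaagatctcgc

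CACGTG occurred at 2 places before the start of Rrn3, at bases 215 to 210 and 48 to 43 upstream, and before the start of no other gene of the 9 that were searched. It was present in 6.02% of all 32851 upstream windows of the same length. The 9 genes had 15 windows, and a gene was counted if any of its windows matched. The shares given here are per window, so that they are not the shares of genes. CCGGAAG stood 42 to 36 bases before the start of Polr1c and was also found upstream of Taf1c, with a share of 6.91% of all windows. In total, 11 letter patterns were searched on both strands after the expression values were known, and 4 of them occurred in at least 1 of the 9 genes. The other 2 of these 4 were CCAAT (Polr1a, Ubtf and Taf1c, 33.9% of all windows) and GGGCGGGG (Polr1e and Ubtf, 16.1%), and none of the 4 overlapped in the sequences shown. TGACGTCA, TATAAA and TGATGNAA occurred upstream of none of the 9 genes, and in 1.55%, 12.4% and 3.45% of all windows, respectively. The remaining 4 patterns, the longer motifs of Nrf1, YY1 and THAP11 and the palindromic CGCG element, also had no exact match upstream of these genes. Apart from the N in TGATGNAA, which stands for any base, all letters had to match. Near matches were not counted, so that a related element is not excluded. A match of letters is a description of the sequence and not evidence of binding.

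The libraries held 30968945 to 48301792 counts on genes, of which mitochondrial genes took 1.20% to 2.43% in wildtype, 0.893% to 1.24% in Kat5 ko and 1.58% to 3.24% in Ep400 ko libraries. The share was highest in Ep400/3, where most of the 10 genes were lowest, and its part in the results was not tested. CPM values (counts relative to the library total) were scaled by TMM over all 10 libraries. Kat5 reached 49.2 to 58.3 CPM in wildtype cells and 16.3 to 23.0 CPM in Kat5 ko clones. Ep400 reached 158 to 168 CPM in wildtype cells and 54.4 to 60.4 CPM in Ep400 ko clones, so that both targeted genes matched the labels. Of 10 markers of cranial neural crest, 9 were present in every library at 4.36 CPM or more, whereas Msx2 was near absent (0.045 to 2.64 CPM). The markers summed to 859 to 1074 CPM in wildtype, 1040 to 1294 CPM in Kat5 ko and 1503 to 1599 CPM in Ep400 ko libraries. Markers of pluripotent cells, neurons and skeletal muscle summed to at most 0.113 CPM, with Pou5f1, Zfp42, Rbfox3 and Myod1 at 0 counts in all libraries. In Ep400 ko against wildtype cells, 7 of the 10 had a positive log2 fold change and 3 of them passed, Pdgfra (2.25), Tfap2a (1.37) and Snai2 (0.86), whereas 8.00% of all genes were called higher. Ets1 (-0.57), Sox9 (-0.40) and Nes (-0.31) were negative and did not pass, and in Kat5 ko cells none of 9 tested markers passed. Epithelial markers summed to 1.28 to 3.27 CPM in wildtype, 0.263 to 0.719 CPM in Kat5 ko and 0.513 to 0.848 CPM in Ep400 ko libraries. Endothelial markers summed to 0.874 to 1.64, 0.196 to 0.581 and 0.140 to 0.266 CPM, so that both sums were lower in all clones than in the wildtype cultures. This did not hold for each marker, as Cdh5 had 0 to 0.204 CPM in wildtype and 0.194, 0.0980 and 0.0876 CPM in Kat5/1 to Kat5/3. Of both lists, Krt8 (log2 fold change -2.21) and Pecam1 (-3.33) passed in Ep400 ko cells, whereas 5.72% of all genes were called lower. Pecam1 had only 2, 1 and 11 counts in Ep400/1 to Ep400/3. No marker of both lists passed in Kat5 ko cells. Blood markers summed to 4.92 to 6.48 CPM in wildtype, 2.88 to 4.84 CPM in Kat5 ko and 2.45 to 7.80 CPM in Ep400 ko libraries, mostly from Cd68. Smooth muscle markers summed to 5.71 to 15.7 CPM in wildtype, 0.457 to 507 CPM in Kat5 ko and 2.21 to 57.0 CPM in Ep400 ko libraries. This sum came from Acta2, while Myh11 and Cnn1 stayed at or below 0.194 CPM. Acta2 had 506, 0.457 and 20.5 CPM in Kat5/1 to Kat5/3 and 46.8, 2.03 and 56.8 CPM in Ep400/1 to Ep400/3. The part of these markers in the results was not tested. In bulk RNA, fewer cells with a transcript and less transcript per cell cannot be told apart.

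All 10 genes were expressed in wildtype O9-1 cells and passed the filter on low counts in every comparison, with 265 to 15383 counts per gene and library. Together they took 0.0827% to 0.0876% of the counts in wildtype, 0.0912% to 0.145% in Kat5 ko and 0.0547% to 0.0805% in Ep400 ko libraries. After division by exon length (CPM per kilobase of merged exons, RPKM), the wildtype means were highest for Polr1c with 38.5 ± 1.90 RPKM (SD, n = 4) and Ubtf with 35.5 ± 1.46 RPKM. They were followed by Tcof1 with 27.8 ± 1.10, Polr1d with 27.5 ± 4.25 and Rrn3 with 20.1 ± 3.62 RPKM. The lower levels were those of Polr1a with 10.5 ± 0.930, Taf1b with 8.43 ± 1.01, Polr1b with 8.19 ± 0.862, Polr1e with 4.07 ± 0.582 and Taf1c with 3.61 ± 0.761 RPKM. Ranges overlapped between the neighbours Polr1c and Ubtf, Tcof1 and Polr1d, Polr1a and Taf1b, Taf1b and Polr1b, and Polr1e and Taf1c, so that their order is not resolved. Per length of merged exons, transcripts of the Pol I-specific subunits Polr1a and Polr1b were thus lower than transcripts of Polr1c and Polr1d, which also serve Pol III. Merged exons include the bases of all annotated transcripts of a gene, so that the order between genes depends on this choice of length.

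**Figure D1:**
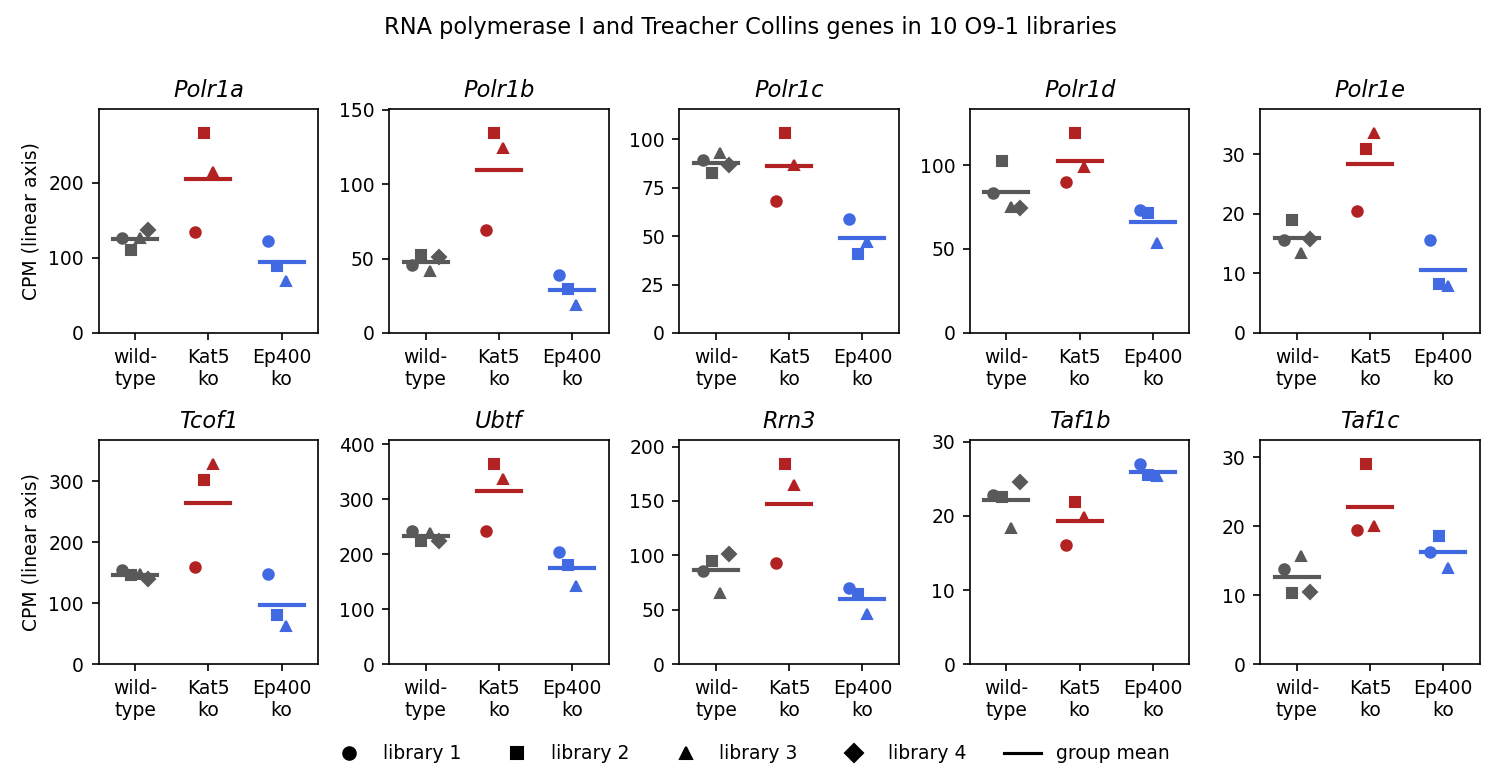
CPM (vertical, linear axes from 0) of the 10 genes in 4 wildtype (grey), 3 Kat5 ko (red) and 3 Ep400 ko (blue) libraries; symbols stand for library numbers and lines for group means. For Polr1b, the 3 Kat5 ko clones (68.9 to 134 CPM) lie above and the 3 Ep400 ko clones (18.7 to 39.0 CPM) below the wildtype cultures (41.3 to 52.1 CPM), whereas for Taf1b the Ep400 ko clones are highest.

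The largest subunits form the catalytic core of Pol I. Polr1a (chr6:71909053-71984935, plus strand; coordinates from here on are those of GENCODE M21 on GRCm38) encodes the largest subunit. Its level was 126, 111, 127 and 137 CPM in WT/1 to WT/4. The Kat5 ko clones had 135, 266 and 214 CPM, and the Ep400 ko clones 123, 89.7 and 69.8 CPM. Kat5/1 and Ep400/1 lay within the range of the wildtype cultures, and the other clones were outside it on opposite sides. The fitted log2 fold change was 0.71 ± 0.22 (SE) in Kat5 ko cells (adjusted p = 0.118, edgeR's quasi-likelihood test) and -0.37 ± 0.19 in Ep400 ko cells (adjusted p = 0.211, same test). Neither passed the threshold of 0.05. The exons of Polr1a share 185 bases with those of Gm26628 on the opposite strand.

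Polr1b (chr2:129100995-129126594, plus strand) encodes the second-largest subunit and is one of the genes of Treacher Collins syndrome. WT/1 to WT/4 had 45.7, 52.1, 41.3 and 51.0 CPM. The Kat5 ko clones had 68.9, 134 and 124 CPM and were all above the wildtype cultures. The Ep400 ko clones had 39.0, 29.4 and 18.7 CPM and were all below them. The 2.29-fold higher level in Kat5 ko cells (log2 fold change 1.19 ± 0.23, SE) narrowly missed the threshold in edgeR's quasi-likelihood test (adjusted p = 0.0619) and passed it with DESeq2 (adjusted p = 0.000416), with a range of 0.000416 to 0.192 over all alternatives. For Ep400 ko, the log2 fold change was -0.67 ± 0.23, with an adjusted p of 0.0896 in edgeR's test.

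Polr1e (chr4:45018583-45036565, plus strand) encodes a Pol I-specific subunit of the dimer that stabilizes initiation and elongation. It was detected with 15.5, 18.9, 13.4 and 15.7 CPM in the wildtype cultures, 20.4, 30.8 and 33.5 CPM in Kat5 ko clones and 15.6, 8.14 and 7.87 CPM in Ep400 ko clones. All Kat5 ko clones exceeded the wildtype range, whereas Ep400/1 lay within it. Log2 fold changes were 0.83 ± 0.21 (SE) in Kat5 ko cells (adjusted p = 0.0889, edgeR) and -0.55 ± 0.28 in Ep400 ko cells (adjusted p = 0.204, edgeR).

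Polr1c and Polr1d form the assembly platform that Pol I shares with Pol III, and both are Treacher Collins genes. Polr1c (chr17:46243920-46248054, minus strand) was one of the most even genes among the wildtype cultures, with 89.2, 82.5, 92.8 and 86.7 CPM. The Ep400 ko clones had 59.0, 40.6 and 47.2 CPM and were all below every wildtype culture. Polr1c fell 1.74-fold in Ep400 ko cells (log2 fold change -0.80 ± 0.15, SE, 95% interval -1.14 to -0.46), with an adjusted p of 0.0131 in edgeR's test. Polr1c was the only one of the 10 genes that passed the threshold against wildtype, and 5.72% of the 13836 genes tested were called lower in this comparison. It passed in each of 7 fits with 1 library left out (adjusted p = 0.0108 to 0.0460, edgeR). In Kat5 ko clones, Polr1c had 68.2, 103 and 86.6 CPM, on either side of the wildtype cultures, and the log2 fold change was -0.03 ± 0.16 (95% interval -0.39 to 0.33).

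The chromosome of Polr1c differed between clones as a whole. The median log2 level of 670 genes on chromosome 17 relative to the wildtype mean was 0.11 in Ep400/1, -0.33 in Ep400/2 and -0.15 in Ep400/3. Polr1c itself was at -0.57, -1.11 and -0.89 in these clones on the same scale. After subtraction of the chromosome's median in each library, Polr1c was at -0.68, -0.78 and -0.75, and the SD between the 3 clones was 0.053 in place of 0.27. The mean difference from wildtype was -0.74 after subtraction against -0.86 before, so that most of it remained and the clones lay closer together. The genes within 5 Mb of Polr1c gave a similar value of -0.74 after subtraction. In Kat5/3, chromosome 17 had a median of -0.38, and the level of Polr1c relative to it was 0.36.

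Polr1d (chr5:147077050-147111597, plus strand) showed 83.6, 102, 75.2 and 74.2 CPM in the wildtype cultures. Kat5 ko clones had 89.7, 119 and 98.5 CPM and overlapped with the wildtype, and Ep400 ko clones had 73.0, 71.5 and 53.5 CPM, with Ep400/1 only just below WT/4. The log2 fold changes of 0.28 ± 0.17 (SE; 95% interval -0.09 to 0.66) in Kat5 ko and -0.30 ± 0.17 (95% interval -0.69 to 0.09) in Ep400 ko cells did not pass the threshold (adjusted p = 0.343 and 0.253, edgeR).

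The ratio of a specific to a shared subunit within a library does not depend on how libraries are scaled. Per length, Polr1b amounted to 0.201, 0.248, 0.175 and 0.231 of Polr1c in the wildtype cultures, to 0.396, 0.510 and 0.564 in Kat5 ko clones, and to 0.259, 0.284 and 0.155 in Ep400 ko clones. All Kat5 ko clones were above the wildtype range, including Kat5/1, and Ep400 ko clones lay on both sides of it. The ratio of Polr1a to Polr1c was 0.257 to 0.304 in wildtype cultures and 0.380 to 0.495 in Kat5 ko clones. It was 0.398, 0.424 and 0.284 in Ep400/1 to Ep400/3. These ratios were chosen after the levels were known and were not tested.

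Tcof1 (chromosome 18, minus strand), the main gene of Treacher Collins syndrome, had the smallest SD of the 10 genes among the wildtype cultures on the log2 scale (0.057), with 154, 146, 147 and 139 CPM. Kat5 ko clones had 160, 303 and 328 CPM, and Ep400 ko clones 149, 80.4 and 62.9 CPM. Kat5/1 was at 109% of the wildtype mean and Ep400/1 at 101%, whereas Kat5/2 and Kat5/3 were at 206% and 223%, and Ep400/2 and Ep400/3 at 54.9% and 42.9%. The log2 fold change was 0.84 ± 0.23 (SE) in Kat5 ko cells, with an adjusted p of 0.0966 in edgeR's test and of 0.00314 to 0.279 over the alternatives. For Ep400 ko it was -0.55 ± 0.26 (adjusted p = 0.183, edgeR). Medians of chromosome 18 did not run in parallel, with log2 values of 0.29, -0.25 and 0.15 in Kat5/1 to Kat5/3. After their subtraction, Kat5/1 was at -0.16 for Tcof1 and the 3 Kat5 ko clones overlapped with the wildtype.

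Ubtf (chr11:102304560-102319742, minus strand), the architectural factor of ribosomal RNA genes, was the gene with the highest CPM. It had 243, 225, 238 and 224 CPM in the wildtype cultures, 243, 364 and 337 CPM in Kat5 ko clones and 204, 180 and 142 CPM in Ep400 ko clones. Log2 fold changes were 0.43 ± 0.16 (SE) and -0.36 ± 0.15 (adjusted p = 0.167 and 0.136, edgeR). All Ep400 ko clones were below the wildtype, but chromosome 11 also had medians of -0.19, -0.24 and -0.26 in them. After subtraction of these medians, Ep400/1 was at 0.01, Ep400/2 at -0.13 and Ep400/3 at -0.45, and the ranges overlapped.

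Rrn3 (chr16:13780708-13814839, plus strand), which links Pol I to the promoter complex, showed 85.6, 94.6, 65.2 and 101 CPM in WT/1 to WT/4. The Kat5 ko clones had 93.4, 184 and 164 CPM and the Ep400 ko clones 69.6, 64.3 and 46.5 CPM. Both groups overlapped with the wildtype, in the case of the Ep400 ko clones because of the low value of WT/3. In this culture, the median of chromosome 16 was -0.30 on the log2 scale, against 0.07 to 0.13 in the other wildtype cultures. Subtraction of the chromosome's medians reduced the SD of Rrn3 between the wildtype cultures from 0.28 to 0.11 and placed all Ep400 ko clones below them. Fitted log2 fold changes were 0.76 ± 0.25 (SE) and -0.49 ± 0.20 (adjusted p = 0.135 and 0.127, edgeR).

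Taf1b and Taf1c, the SL1 subunits among the 10 genes, had log2 fold changes of opposite sign in Kat5 ko cells and positive ones in Ep400 ko cells. None of these changes passed the threshold. Taf1b (chr12:24498359-24558539, plus strand) had 22.9, 22.5, 18.4 and 24.6 CPM in wildtype cultures, 16.1, 21.9 and 19.9 CPM in Kat5 ko clones and 27.0, 25.6 and 25.4 CPM in Ep400 ko clones. The Ep400 ko clones were all above the wildtype and closer together (SD 0.047 on the log2 scale) than those of any other gene of the 10, but the log2 fold change of 0.28 ± 0.15 (SE) did not pass the threshold (adjusted p = 0.233, edgeR). In Kat5 ko cells it was -0.20 ± 0.18 (adjusted p = 0.534, edgeR). The lowest Kat5 ko clone was Kat5/1, in which chromosome 12 had a median of -0.28.

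Taf1c (chr8:119597871-119605222, minus strand) had 13.8, 10.4, 15.7 and 10.4 CPM in the wildtype cultures, 19.4, 29.0 and 20.0 CPM in Kat5 ko clones and 16.2, 18.6 and 13.9 CPM in Ep400 ko clones. It was the only gene of the 10 with a positive log2 fold change in both knockouts, with 0.85 ± 0.23 (SE; adjusted p = 0.0964, edgeR) and 0.41 ± 0.22 (adjusted p = 0.226, edgeR). Both comparisons share the wildtype cultures. The values of Taf1c are uncertain because 584 of its 3490 exon bases (16.7%) overlap with exons of Dnaaf1 on the opposite strand and the strand setting of the counting is not given in the sources used here. Per length, the ratio of Taf1c to Taf1b was 0.318 to 0.644 in wildtype, 0.757 to 0.994 in Kat5 ko and 0.411 to 0.547 in Ep400 ko libraries.

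**Figure D2:**
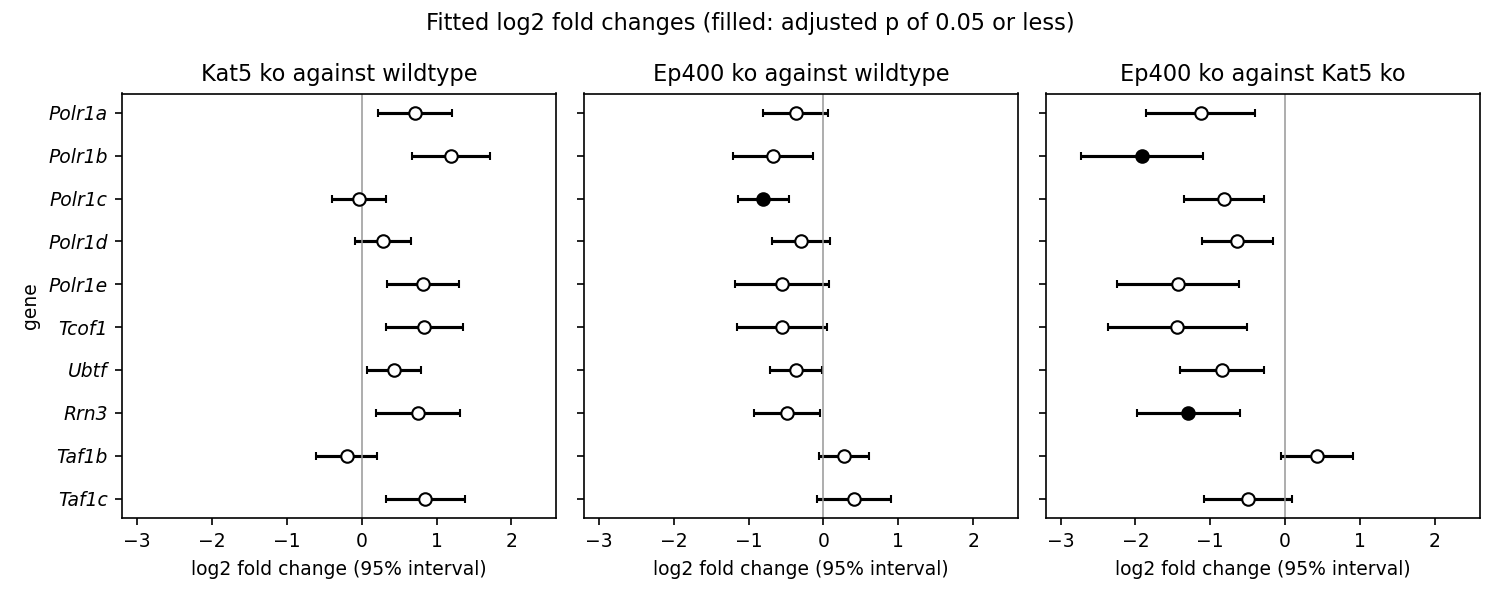
Fitted log2 fold changes (horizontal) with 95% intervals for the 10 genes in 3 comparisons; filled points passed an adjusted p of 0.05 in edgeR's test. Filled points are Polr1c in Ep400 ko against wildtype (-0.80), and Polr1b (-1.91) and Rrn3 (-1.29) in Ep400 ko against Kat5 ko.

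As a group, 8 of the 10 genes had a positive and 2 a negative log2 fold change in Kat5 ko cells, with a median of 0.73 against 0.00 for all 13434 genes tested. None passed the threshold, and neither did many other genes, since 0.179% of all genes were called higher and 0.447% lower. At an unadjusted p of 0.05 or less, 7 of the 10 genes were higher and none was lower, against 10.7% of all genes that were higher at this limit. For Polr1b, Polr1e, Tcof1 and Taf1c, all Kat5 ko clones exceeded all wildtype cultures, which was the case for 8.79% of all genes. DESeq2 called 5 of the 10 genes higher (Polr1a, Polr1b, Polr1e, Tcof1 and Taf1c), and 3.77% of the 14218 genes it tested. Differentially expressed genes (DEGs) had to pass the threshold with a log2 fold change of 1 or more in either direction and to average above 100 normalized counts in 1 or both groups. None of the 10 genes was among the 0.476% of genes that met these limits.

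In Ep400 ko cells, 8 of the 10 genes had a negative and 2 (Taf1b and Taf1c) a positive log2 fold change, with a median of -0.43 against 0.04 for all genes. Beside the call for Polr1c, 3 further genes (Polr1b, Ubtf and Rrn3) were lower at an unadjusted p of 0.05 or less, and 14.2% of all genes were lower at this limit. For 4 of the 10 genes (Polr1b, Polr1c, Polr1d and Ubtf), all Ep400 ko clones were below all wildtype cultures, and for Taf1b they were above. This was the case for 16.0% and 14.3% of all genes, respectively. DEGs made up 6.42% of all genes in this comparison and included none of the 10, as the fall of Polr1c was smaller than the limit.

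The test of a difference between the knockouts is their direct comparison, because both comparisons with wildtype share the same cultures. Polr1b was 3.77-fold lower in Ep400 ko than in Kat5 ko clones (log2 fold change -1.91 ± 0.35, SE, adjusted p = 0.0328, edgeR), with 18.7 to 39.0 against 68.9 to 134 CPM. Rrn3 was 2.45-fold lower (-1.29 ± 0.29, adjusted p = 0.0460, edgeR), with 46.5 to 69.6 against 93.4 to 184 CPM. Both were called, against 2.83% of all 13587 genes that were called lower, and both were DEGs, to which 5.36% of all genes belonged. The remaining genes had log2 fold changes of -1.44 (Tcof1), -1.43 (Polr1e), -1.13 (Polr1a), -0.84 (Ubtf), -0.81 (Polr1c), -0.64 (Polr1d), -0.49 (Taf1c) and 0.43 (Taf1b). Their adjusted p ranged from 0.0521 for Polr1e to 0.214 for Taf1c in edgeR's test. The median was -0.99 against 0.01 for all genes, and 8 of 10 genes were lower at an unadjusted p of 0.05 or less (16.0% of all genes). In 9 of 10 genes, all Ep400 ko clones lay below all Kat5 ko clones, and in Taf1b above them. Such a separation was found in 18.9% of all genes for lower and in 19.8% for higher values. Polr1b lost the call when Kat5/2, Kat5/3, Ep400/2 or Ep400/3 was left out (adjusted p = 0.0196 to 0.123 over all 6 fits without 1 library, edgeR), and Rrn3 in each of these cases and without Ep400/1 (0.0196 to 0.154).

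**Figure D3:**
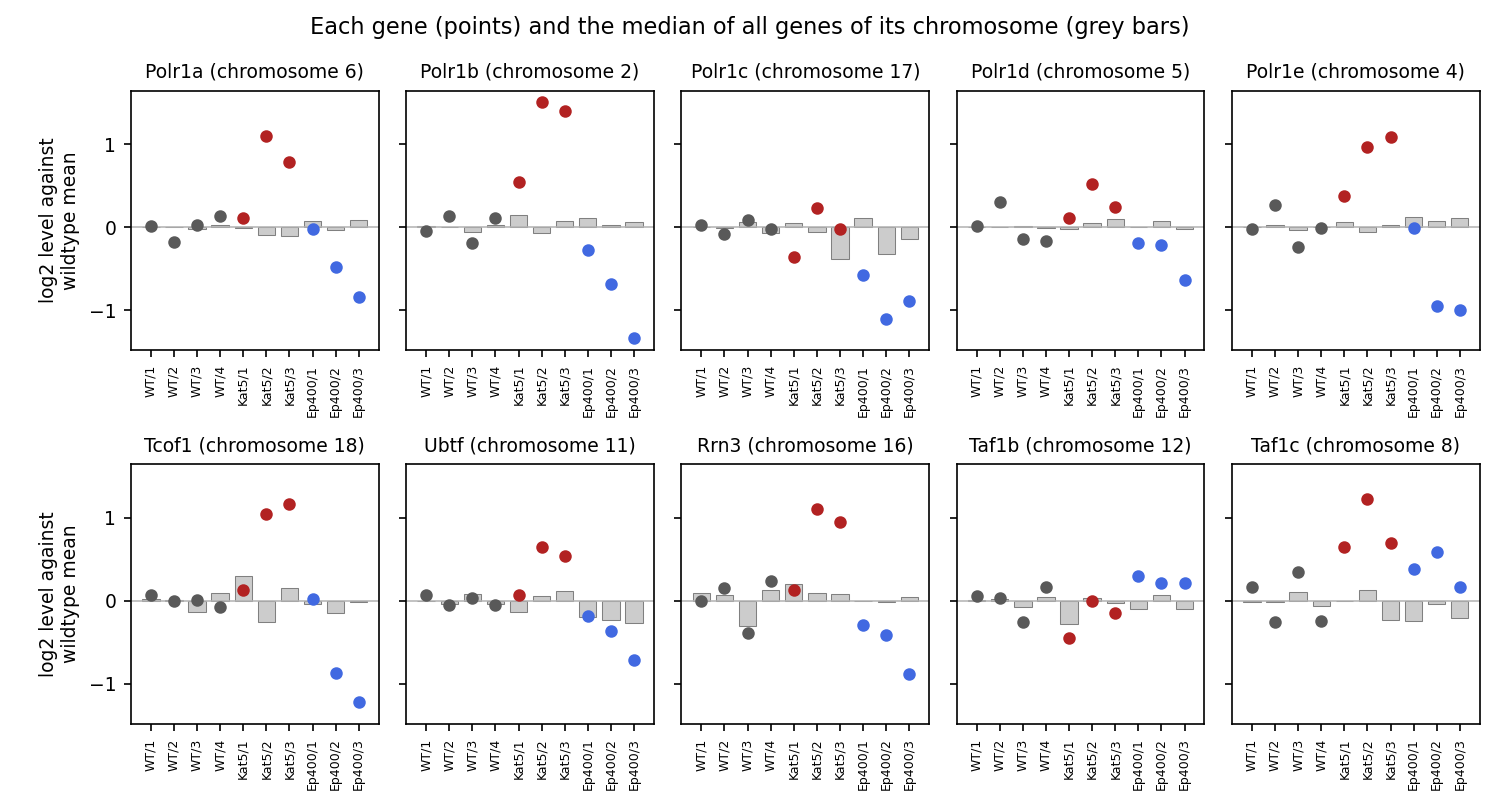
Log2 level relative to the wildtype mean (vertical) of the 10 genes in each library (points; grey wildtype, red Kat5 ko, blue Ep400 ko) and median of all genes of the same chromosome in that library (grey bars). Kat5/2 and Kat5/3 are highest for Polr1b (1.50 and 1.39), Ep400/3 is lowest for Polr1b (-1.34), and bars are largest for chromosome 17 in Kat5/3 (-0.38) and in Ep400/2 (-0.33).

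Clones of the same knockout differed in a manner that ran through the genes. The median of the 10 genes relative to the wildtype mean was 0.12 in Kat5/1 but 1.01 in Kat5/2 and 0.73 in Kat5/3 on the log2 scale. It was -0.11 in Ep400/1, -0.44 in Ep400/2 and -0.86 in Ep400/3. Of the 10 genes, 4 were above the range of the 4 wildtype cultures in Kat5/1, 9 in Kat5/2 and 7 in Kat5/3, compared to 26.7%, 31.7% and 31.5% of all genes. In Kat5/1, 2 were below it, and none in the other Kat5 ko clones, compared to 28.7%, 35.5% and 33.4% of all genes in Kat5/1 to Kat5/3. Below this range were 4 genes in Ep400/1, 8 in Ep400/2 and 8 in Ep400/3, compared to 31.1%, 34.3% and 37.1% of all genes. Above it were 2, 2 and 1, compared to 30.1%, 30.9% and 34.5% of all genes. In Kat5/1, the clone nearest to wildtype among the Kat5 ko clones, Acta2 had its highest level (506 CPM), and in Kat5/2, with the highest median of the 10 genes, its lowest (0.457 CPM). In the Ep400 ko clones, Acta2 was lowest in Ep400/2 and highest in Ep400/3, and its part was not tested. By the median of the 10 genes, Ep400/1, the clone with frameshifts in all Ep400 alleles, was closest to the wildtype among the Ep400 ko clones. A relation to the kind of mutation was not tested. Without Kat5/1, edgeR called 7 of the 10 genes higher in Kat5 ko cells (Polr1a, Polr1b, Polr1e, Tcof1, Ubtf, Rrn3 and Taf1c) against 9.83% of all genes. Without Ep400/1, it called 5 genes lower in Ep400 ko cells (Polr1a, Polr1b, Polr1c, Polr1e and Tcof1) against 6.13% of all genes. In the direct comparison, 7 genes were called lower without Kat5/1, against 8.68% of all genes. Leaving out these clones follows from the values seen and does not replace the comparison of all clones. Subtraction of chromosome medians left the medians of the 10 genes at 0.66 in Kat5 ko and -0.51 in Ep400 ko cells and at -0.98 between the knockouts. It made the SD between libraries smaller for 9 of the 10 genes in wildtype cultures, but for 4 in Kat5 ko and 6 in Ep400 ko clones.

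Other genes of the pathway were taken from lists written from general knowledge. Of the 7 other Pol I subunits and factors (Twistnb, Cd3eap, Znrd1, Taf1a, Taf1d, Tbp and Ttf1), all had a positive log2 fold change in Kat5 ko cells and none passed the threshold, with a median of 0.55. Closest to it were the Pol I subunit gene Cd3eap with 1.21 ± 0.22 (SE; adjusted p = 0.0558, edgeR) and the SL1 subunit gene Taf1d with 0.78 ± 0.16 (adjusted p = 0.0684, edgeR). Taf1a had 0.58 ± 0.23 and Twistnb 0.55 ± 0.27. In Ep400 ko cells, 4 of the 7 were positive and 3 negative, none passed, and the median was 0.19, on the other side of 0 from the median of the 10 genes.

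Of 11 partners of Tcof1 and regulators of Pol I, 10 had a positive log2 fold change in Kat5 ko cells and none passed, with a median of 0.49. Ddx21, a nucleolar RNA helicase, was closest with 1.21 ± 0.28 (SE; adjusted p = 0.0748, edgeR). In Ep400 ko cells, 9 of 11 were negative (median -0.38) and 3 passed, whereas 5.72% of all genes were called lower. Smarca5, the ATPase of the NoRC complex that silences ribosomal RNA genes, fell by 0.78 on the log2 scale (SE 0.15, adjusted p = 0.0138, edgeR). Baz2a, the other NoRC subunit, fell by 0.54 (SE 0.14, adjusted p = 0.0376, edgeR), and Npm1, which encodes the abundant nucleolar protein nucleophosmin, fell by 0.88 (SE 0.21, adjusted p = 0.0274, edgeR). In the direct comparison all 11 were negative, with a median of -1.06, and none passed.

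Subunits of the other polymerases were examined for comparison. In Kat5 ko cells, the medians were 0.28 for 5 subunits shared by all polymerases, 0.40 for 11 Pol III subunits and 0.29 for 8 Pol II subunits. In Ep400 ko cells they were -0.19, -0.06 and -0.20, and none of these genes passed in either comparison. Of the Pol III subunits, Polr3a, the largest, had log2 fold changes of 0.75 ± 0.19 (SE) in Kat5 ko and 0.33 ± 0.15 in Ep400 ko cells (adjusted p = 0.0890 and 0.153, edgeR). The corresponding log2 fold changes were 0.47 and -0.06 for Polr3d, 0.42 and -0.44 for Polr3e, and 0.40 and 0.41 for Polr3f. Of the Pol II subunits, Polr2a, the largest, had 0.51 ± 0.25 and -0.31 ± 0.21 (adjusted p = 0.262 and 0.327, edgeR), Polr2d 0.37 and -0.35, Polr2j 0.22 and 0.42, and Polr2m 0.38 and -0.03. Of the shared subunits, Polr2l had 0.47 ± 0.19 and 0.83 ± 0.26 (adjusted p = 0.196 and 0.0649, edgeR), whereas Polr2e, Polr2f and Polr2h had 0.21, 0.28 and 0.50 in Kat5 ko and -0.24, -0.19 and -0.36 in Ep400 ko cells.

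Disturbed ribosomal RNA synthesis is known to stabilize p53, so that 14 targets of p53 were included. In Kat5 ko cells, 11 were positive and 3 negative (median 0.24), and none passed. Aen, a nucleolar exonuclease, was closest with 0.88 ± 0.18 (SE, adjusted p = 0.0683, edgeR). Under Ep400 ko, 7 were positive and 7 negative (median 0.05), and Phlda3, an inhibitor of Akt signaling, rose by 0.75 on the log2 scale (SE 0.20, adjusted p = 0.0393, edgeR), whereas 8.00% of all genes were called higher. Fas, a death receptor, had 1.45 ± 0.59, and the kinase gene Plk3 0.74 ± 0.31 (adjusted p = 0.130 and 0.137, edgeR). The list did not run in parallel with the Pol I genes in the Kat5 ko clones, as its median was 0.61 in Kat5/1, -0.55 in Kat5/2 and 0.24 in Kat5/3.

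**Figure D4:**
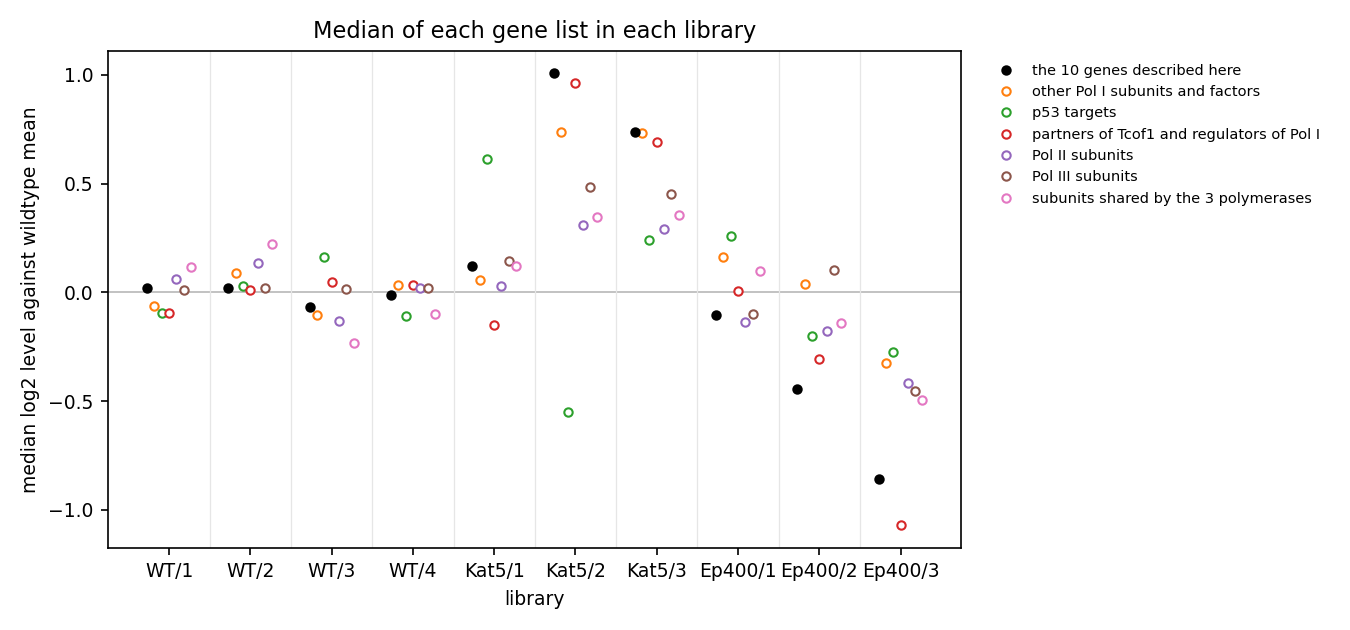
Median log2 level relative to the wildtype mean (vertical) of the 10 genes (filled) and of 6 lists of related genes (open) in each library (horizontal). The 10 genes and the partners of Tcof1 lie highest in Kat5/2 (1.01 and 0.96) and lowest in Ep400/3 (-0.86 and -1.07), and the lists of Pol II, Pol III and shared subunits deviate less in these libraries.

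For each Treacher Collins gene, genes with the most similar levels over the 10 libraries were sought among genes of at least comparable abundance, using the mean absolute difference of the log2 level relative to the wildtype mean. Tcof1 was closest to Tbl3 (0.0996), Tbrg4 (0.100) and Eif3b (0.112), with a median difference of 0.477 to all 3135 candidates. Polr1b was closest to Bend3 (0.103), Tsr1 (0.130) and Nop2 (0.133). Tbl3, Tsr1 and Nop2 encode factors of ribosome production, and the share of such factors among all candidates was not determined. Polr1c was closest to Psip1 (0.103), Lasp1 (0.103) and Cs (0.112), which were near the wildtype in Kat5 ko clones (mean log2 -0.06, 0.17 and 0.03) and low in Ep400 ko clones (-0.74, -0.91 and -0.77). Polr1d was closest to Usp12 (0.0682), Sumo2 (0.0811) and Ttf2 (0.0822). Usp12 lies on the same chromosome, 282 kb from Polr1d. The median difference to all candidates was 0.616 for Polr1b, 0.405 for Polr1c and 0.308 for Polr1d. The nearest genes were selected for their likeness, and the values are descriptions.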

How the data were processed

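RNA was sequenced from 4 wildtype cultures, 3 Kat5 ko clones and 3 Ep400 ko clones. The authors prepared stranded poly-A libraries; per the labels, STAR 2.7.3 and the build mm10 were used (bcl2fastq 2.20, DESeq2 1.36.0 and R 4.2.1 are also named). The values deposited by the authors and used here are raw counts, that is whole numbers of reads assigned to each gene. The counting program, its strand setting and the annotation are not given in the sources used here. The deposited normalized tables and the authors' own comparisons were not used.

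Groups follow the sample titles. The genes, lists and tests were chosen with earlier results of these data known. In each comparison, low counts were removed by filterByExpr, libraries were scaled by TMM, and genes were compared by the quasi-likelihood test of edgeR 4.0.16 in R 4.3.3 (robust fit), with Benjamini-Hochberg adjustment over all genes tested. Robust estimation was not part of the test as it had been laid down. It was chosen after values of Polr1b and other members had been seen under several settings, because it gave the numbers of called genes of an earlier analysis of the same table. Alternatives used DESeq2 1.42.0, limma 3.58.1 (voom), other normalizations, no filter, a joint fit, a replicate block, each library left out, non-robust and bias-adjusted fits, and subtraction of chromosome or neighbourhood medians. SE are the log2 fold change divided by the root of F. Log2 levels per library used a prior count of 2. CPM and RPKM use TMM factors over all libraries and merged exons of GENCODE M21, which held 42462 of 43346 gene identifiers. Named are all members, of each list of related genes the 4 with the smallest p in either comparison with wildtype, and the 3 nearest profiles; markers were named by the same rule, and Sox9, Nes, Msx2 and markers near 0 in addition, after their values were seen. The fits were tested on simulated data with 1 dispersion per gene for both groups. Such data cannot show how the fits behave where clones spread more than cultures. No pair of libraries within a group agreed within counting error (chi-square divided by its degrees of freedom 26.1 to 239). The biological coefficients of variation of 0.342 (Kat5), 0.325 (Ep400) and 0.409 (between knockouts) limit precision more than depth does. For wildtype, the labels name biological replicates. The p-values measure the spread between cultures and clones, pooled as 1 dispersion per gene for both groups. The median SD of the 10 genes on the log2 scale was 0.167 in wildtype, 0.352 in Kat5 ko and 0.290 in Ep400 ko libraries. The part of this uneven spread in SE and p-values was not tested. Protein sequences were not used here.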

Additional observations from a re-analysis of the deposited data

Results flagged for a closer look

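The effects of the knockouts differed for 2 of the 10 genes by the direct comparison of Ep400 ko with Kat5 ko clones. The log2 difference was -1.91 for Polr1b (adjusted p = 0.0328, edgeR's quasi-likelihood test) and -1.29 for Rrn3 (adjusted p = 0.0460, same test). In both genes, 3 of 3 Ep400 ko clones were lower than 3 of 3 Kat5 ko clones, as was the case in 18.9% of all genes. Called lower in this comparison were 2.83% of all genes. With 1 library left out, the call held in 2 of 6 fits for Polr1b and in 1 of 6 for Rrn3. Among the 4 wildtype cultures, no culture of any of the 10 genes stood apart by Dixon's criterion, and groups of 3 clones were not examined in this way.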

How the results depend on the processing

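The direction of the median of the 10 genes was the same under all alternatives that were run in the 3 comparisons, with 0.53 to 0.95 for Kat5 ko, -0.60 to -0.29 for Ep400 ko and -1.18 to -0.82 for Ep400 ko against Kat5 ko when 1 library was left out. The number of called genes was less stable. Instead of 0 genes in Kat5 ko cells, 5 passed with DESeq2, 1 (Polr1b, adjusted p = 0.0252, edgeR) without the filter on low counts and 1 (Polr1b, adjusted p = 0.0466) with bias-adjusted deviances in edgeR, the latter setting being added after the data were seen. Of all genes, these settings called 536 of 14218, 101 of 22025 and 43 of 13434 higher, against 24 of 13434 in the test reported. Without robust estimation, which was also added, the counts were 0, 1 and 2 as with it. Between the knockouts, 7 genes passed with DESeq2, 5 without the filter and 8 in the joint fit of all libraries, instead of 2. Of all genes, 3013 of 15735, 1445 of 22321 and 3555 of 14079 passed in these fits, against 958 of 13587 in the test reported. Leaving out 1 library gave 0 to 7 genes for Kat5 ko (7 without Kat5/1), 1 to 5 for Ep400 ko (5 without Ep400/1) and 0 to 7 between knockouts (7 without Kat5/1, 0 without Kat5/2, Kat5/3, Ep400/2 or Ep400/3). Of all genes, 9.83% were called higher without Kat5/1, 6.13% lower without Ep400/1, and 8.68% lower between knockouts without Kat5/1. The replicate block left 0 genes in Ep400 ko cells (Polr1c -0.82, adjusted p = 0.0749 against 0.000147 to 0.0460 in its other alternatives) and 0 between the knockouts (Polr1b -1.93, adjusted p = 0.0665, and Rrn3 -1.26, adjusted p = 0.0885). The sample titles do not state a pairing by replicate number. Residuals had correlations of -0.096 to 0.22 between libraries with the same number and of -0.25 to 0.29 between libraries with different numbers. These values cannot decide whether a pairing exists, and the reason for the lost calls under the block was not tested. Polr1c in Kat5 ko cells, with a log2 fold change of -0.035, ranged from -0.18 to 0.11 when 1 library was left out (0.0025 without WT/3 and 0.11 without Kat5/1) and reversed to 0.082 after subtraction of the chromosome's median and 0.14 after subtraction of the median of genes within 5 Mb. The cause was not tested in these cases. With library size alone, the median of all genes between knockouts moved from 0.01 to 0.14, and the calls were 630 higher and 238 lower against 573 and 385 with TMM. Over all genes, calls for Kat5 ko ranged from 84 in the test reported to 1391 with DESeq2, 286 without the filter, 182 with bias-adjusted deviances, 27 in the joint fit and 0 with the replicate block. For Ep400 ko they were 1899, against 3175 with DESeq2 and 166 with the replicate block, and between knockouts 958, against 3013, 1445 without the filter, 1588 with bias-adjusted deviances, 3555 in the joint fit and 213 with the replicate block.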
